A study of Drosophila melanogaster with 3 samples.

Results

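The mitochondrial ribosomal protein genes are the nuclear genes of Drosophila melanogaster whose products build the ribosome inside mitochondria. They were chosen by name, as the protein-coding genes of the dm6 annotation whose symbol starts with mRpL (large subunit) or mRpS (small subunit). This gave 73 genes of 13945 protein-coding genes on the chromosome arms that hold peaks, 47 of the large and 26 of the small subunit. Binding near them was read from chromatin immunoprecipitation and sequencing (ChIP-seq) of Blimp-1, the fly relative of the mammalian transcriptional repressor PRDM1. The material was whole embryos of 10 to 12 h from 1 stable transgenic line that carries Blimp-1 fused at its C terminus to green fluorescent protein (GFP), precipitated with an antibody to GFP. There were 3 biological replicates of this 1 group and no other genotype, age or treatment, so binding was not compared between conditions. Whole embryos mix all cell types, so binding in few cells and weak binding in many cannot be told apart. The age given here is that of the source name, since the value in the labels' age field cannot be an embryo's age. The antibody field of the labels reads Blimp-1 while their description gives an antibody to GFP.

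Mitochondria keep a small genome that encodes core subunits of the respiratory chain, and the mitochondrial ribosome translates their messenger RNAs. All of its proteins are made from nuclear genes in the cytosol and imported. Many have counterparts in bacterial ribosomes, and others are found in mitochondria alone. Genes of this kind are expressed broadly, often from compact promoters that lie head to head with that of a neighbour. In flies such promoters often carry the recognition sequence of DREF (TATCGATA), a factor known for genes of growth and DNA replication.

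A summit is the base at which a deposited peak is highest, and a gene counts as bound where a summit lies within 1 kb of any of its transcription start sites (TSSs). The list of 9515 peaks that passed the authors' threshold on reproducibility (the thresholded list) is the strongest part of the pooled list, 30000 peaks called on all replicates as one. Each replicate also has its own list of 30000 peaks, ranked by the signal value, with rank 1 the strongest. Where the replicates are compared, the 9515 strongest peaks of each were used. Read counts are not part of peak lists, so sequencing depth is unknown.

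Mitochondrial ribosomal protein genes were bound about as often as other genes in the thresholded list. Such a summit was found at 21 of 73 genes, or 28.8% (95% Wilson interval 19.7 to 40.0, counting error only). The share over all protein-coding genes was 24.9%, which lies inside that interval. Of the large subunit genes 12 of 47 (25.5%) were bound, and of the small subunit genes 9 of 26 (34.6%). The intervals of the subunits overlap, from 15.3 to 39.5% and from 19.4 to 53.8%. In the pooled list 29 of 73 genes (39.7%) had a summit, beside 38.1% of all protein-coding genes.

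The share differed between the replicates. Among the strongest peaks of replicate 1, 21 of the 73 genes had a summit (28.8%, beside 24.4% of all protein-coding genes). Replicate 2 had 25 (34.2%, beside 25.9%) and replicate 3 had 35 (47.9%, beside 28.2%). The mean was 27.0 ± 7.21 genes (SD, n = 3), or 37.0% ± 9.88, and over all protein-coding genes it was 26.2% ± 1.92. The SD was about as wide over the cytosolic ribosomal protein genes (56.9% ± 10.4). It was narrower over oxidative phosphorylation genes (23.1% ± 5.12), other genes of mitochondrial gene expression (24.3% ± 2.70) and proteasome genes (21.5% ± 2.41). Replicate 3 was the highest in both ribosomal protein lists, as it was over all protein-coding genes, oxidative phosphorylation and other mitochondrial gene expression. In both lists of ribosomal protein genes the distance to the background was widest in replicate 3. All 3 replicates had a summit among their strongest peaks at 18 of the 73 genes (24.7%, beside 20.3% of all protein-coding genes), and at least 1 did at 39 (53.4%, beside 32.1%). In the full lists of replicates 1, 2 and 3 the counts were 28 (38.4%), 40 (54.8%) and 45 (61.6%), beside 39.2%, 42.0% and 44.8% of all protein-coding genes. No summit of any full replicate list lay within 1 kb of 26 of the 73 genes (35.6%, beside 48.0% of all protein-coding genes).

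**Figure D1:**
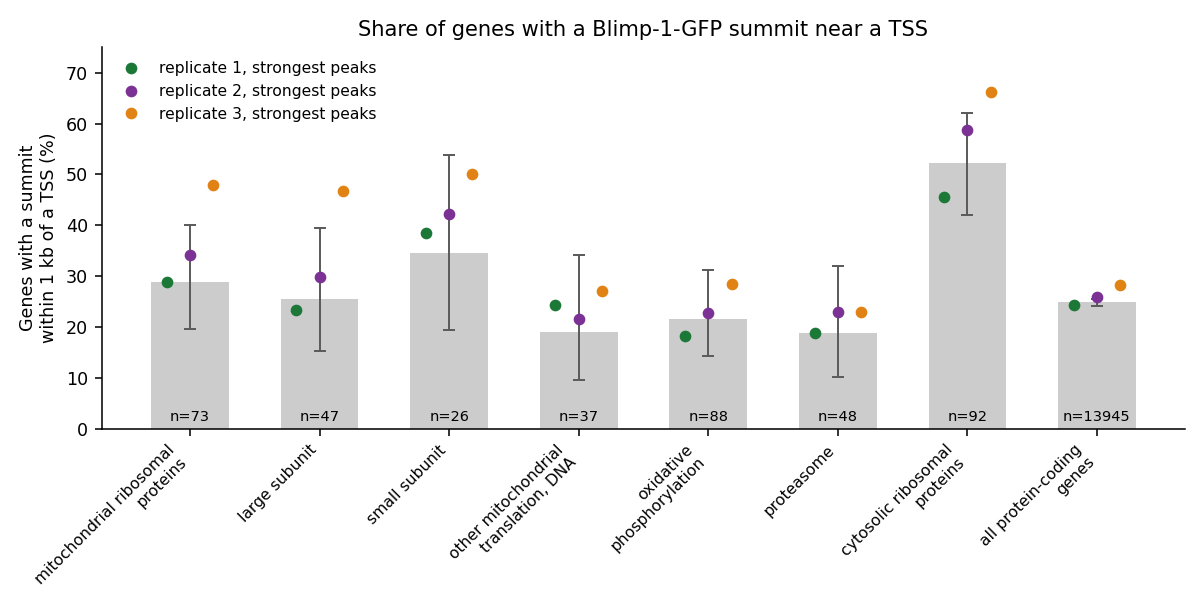
Percentage of genes with a summit within 1 kb of a TSS (vertical axis) for the mitochondrial ribosomal protein genes, their subunits, the compared lists and all protein-coding genes. Bars are the thresholded list with 95% Wilson intervals, points are the strongest peaks of each replicate, and n is the number of genes. The bar of the 73 genes is at 28.8% and that of all genes at 24.9%, with replicate 3 at 47.9% and 28.2%.

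Among the bound genes, 6 had peaks among the strongest 951 of the list and the others ranked from 1563 at mRpL20 to 8795 at mRpL22. The median rank of the strongest summit was 3795 over the 21 bound genes and 3357 over all bound protein-coding genes. The strongest 951 peaks held these 6 of the 21 (28.6%), beside 17.7% of all bound protein-coding genes. From the strongest down these 6 were mRpL41, mRpS10, mRpS23, mRpL23, mRpS2 and mRpL24, of which 3 belong to each subunit.

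The peak of mRpL41, a large subunit protein of mitochondria with no bacterial counterpart, ranked 38 in the thresholded list. It lay at 2R:15217515-15218012 with its summit 145 bp upstream of the TSS. Its rank was 41, 38 and 32 in replicates 1, 2 and 3, so it was among the strongest peaks of the genome in each. The TSS of the divergent neighbour CG8079 is 617 bp from the summit, and the peak therefore lies on the mRpL41 side of a gap of 762 bp.

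At mRpS10, a small subunit protein with a bacterial counterpart, the peak 3R:15229316-15229765 ranked 57, and 68, 57 and 49 in replicates 1, 2 and 3. Its summit lay 130 bp upstream of the gene and 127 bp from the TSS of Art3, an arginine methyltransferase gene, almost midway between them. The order of the replicates was the same as at mRpL41, with replicate 3 the strongest.

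The mRpS23 peak, 2L:13835248-13835696, ranked 98, and 134, 80 and 81 in the replicates. This mitochondria-specific protein of the small subunit has its TSS 406 bp from the summit, whereas that of CenG1A, which encodes a regulator of Arf GTPases, is 86 bp away. The summit is thus nearer to CenG1A. The fourth peak, at mRpL23, ranked 222 and 242, 244 and 174 in the replicates. Its gene encodes a counterpart of a bacterial protein at the exit of the peptide tunnel. This was the only strongest summit of a bound gene that lay downstream of the TSS, 70 bp into the 5′ UTR of mRpL23 (peak 3L:2373405-2373814).

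The peak of mRpS2, a small subunit protein with a bacterial counterpart, ranked 515, and 700, 486 and 395 in the replicates. Its summit was 142 bp upstream of mRpS2 and 80 bp from the TSS of Mon1, a gene of endosome maturation. At mRpL24, whose bacterial counterpart starts the assembly of the large subunit, the peak ranked 545, and 694, 634 and 377. Its summit was 117 bp upstream and 101 bp from the TSS of betaggt-I, a gene for a subunit of a protein prenylation enzyme. Both peaks lay in 2L, at 4850350-4850737 and 4945285-4945662, and both were stronger in replicate 3 than in replicate 1.

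The bases around the next 4 intergenic summits after mRpL41, whose sequence is not shown, are given because they hold none of the words searched for below (dm6, strand of the mRp gene, 5′ to 3′, read from the Release 6 assembly). A stretch of 50 bp either side of the summit is printed, all in lower case since no searched word is present.
mRpS10, chr3R:15229485-15229585, plus strand: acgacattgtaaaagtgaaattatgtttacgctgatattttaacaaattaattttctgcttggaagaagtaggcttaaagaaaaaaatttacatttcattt
mRpS23, chr2L:13835428-13835528, minus strand: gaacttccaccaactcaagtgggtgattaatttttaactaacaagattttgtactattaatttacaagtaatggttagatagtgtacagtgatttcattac
mRpS2, chr2L:4850511-4850611, minus strand: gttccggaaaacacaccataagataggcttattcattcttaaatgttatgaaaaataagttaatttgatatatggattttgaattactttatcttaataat
mRpL24, chr2L:4945428-4945528, minus strand: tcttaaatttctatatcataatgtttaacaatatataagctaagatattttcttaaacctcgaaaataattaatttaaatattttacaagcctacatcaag
These stretches are rich in A and T, at 75.2%, 70.3%, 76.2% and 80.2% in the order printed. Over the 21 bound genes the median GC content at the summit was 28.7%, beside 32.7% over all bound protein-coding genes and 43.6% over bound cytosolic ribosomal protein genes. It was lower still over bound oxidative phosphorylation genes (25.7%), proteasome genes (26.7%) and other genes of mitochondrial gene expression (22.8%).

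The other 15 bound genes had weaker peaks. In the large subunit, mRpL20, whose bacterial counterpart is needed early in assembly, ranked 1563, with 1575, 1362 and 1896 in replicates 1, 2 and 3. The mitochondria-specific mRpL39 ranked 2954 (3503, 3060 and 2663), and its summit lay 138 bp upstream, 147 bp from the TSS of the proteasome gene Prosbeta2. The same peak thus counts for a proteasome gene as well. Further down came mRpL32 (rank 4247), matured by a mitochondrial protease in yeast and mouse, mRpL34 (4949), mRpL19 (4961), mRpL17 (5274), mRpL33 (5870), mRpL51 (7276) and mRpL22 (8795). In the small subunit the remaining genes were mRpS25 (3035), mRpS31 (3349), mRpS24 (3795), mRpS26 (4025), mRpS7 (4260) and mRpS18B (4389). Their ranks span a narrow part of the list, while those of the large subunit reach its weak end.

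Among the weakest bound genes the replicates differed. For mRpL22 the ranks in replicates 1, 2 and 3 were 7229, 13234 and 10902, so it passed the 9515 strongest peaks of replicate 1 alone. The summit of mRpL51 was matched within 100 bp in replicates 2 (rank 6475) and 3 (5795) and not in replicate 1. That of mRpL33 ranked 8574, 5453 and 5024. Higher in the thresholded list, mRpS31 (rank 3349) ranked 3538, 2817 and 3408 in the replicates. The peak of mRpS25 showed the widest spread of the 6 weaker small subunit genes, at 1676, 5588 and 4981, and was the one of these that was clearly stronger in replicate 1. The summit was matched in all 3 replicate lists in 18 of the 21 genes (85.7%, beside 88.8% of all bound protein-coding genes). The exceptions were mRpL17 and mRpL51, without a match in replicate 1, and mRpL34, without one in replicate 3. At mRpL34 the strongest summit of replicate 3 (rank 4725) lay 249 bp upstream, by a second thresholded summit 247 bp upstream. All 9 small subunit genes were matched among the strongest peaks of every replicate, and 8 of the 12 large subunit genes were. Together these are 81.0% of the bound genes, beside 75.7% of all bound protein-coding genes. Across the matched bound genes, Spearman's rho between ranks was 0.854 for replicates 1 and 2 (19 genes), 0.909 for replicates 1 and 3 (18 genes) and 0.928 for replicates 2 and 3 (20 genes), a description of genes that share a control alignment.

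**Figure D2:**
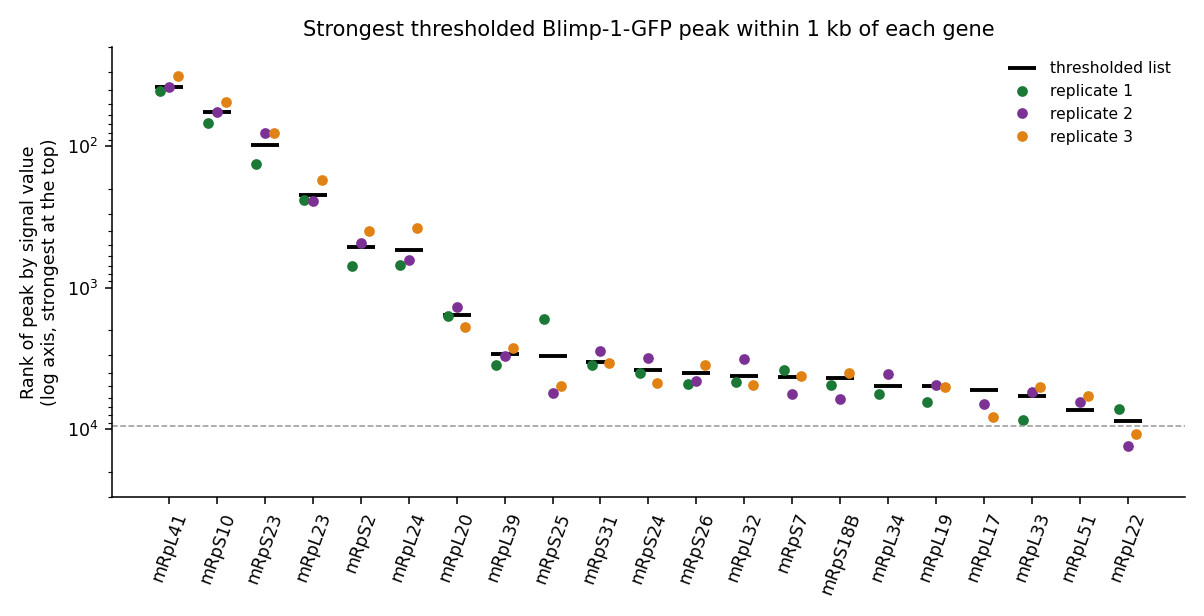
Rank by signal value of the strongest thresholded peak within 1 kb of each of the 21 bound genes (log axis, strongest at the top), in the thresholded list (dashes) and at the matching summit in each replicate (points). The dashed line is rank 9515, and a missing point means no summit within 100 bp in that replicate. The 6 leading genes stay between rank 32 and 700 in all replicates, and mRpL22 falls below the line in replicates 2 and 3.

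Summits lay upstream of the genes, and for most bound genes nearer to the TSS of the neighbour. The strongest summit was upstream of the nearest TSS of the gene in 20 of 21 bound genes (95.2%), beside 75.3% of all bound protein-coding genes and 80.0% of those with a divergent neighbour. Its distance ranged from 63 bp at mRpL51 to 880 bp at mRpL17, with a median of 240 bp. With positions upstream of the TSS counted as negative, the median position of the strongest summit was -240 bp, beside -146 bp over all bound protein-coding genes and -140 bp over those with a divergent neighbour. Taking the nearest summit in place of the strongest, the median distance was 142 bp, beside 178 bp over all bound protein-coding genes. It was 158 bp over those with a divergent neighbour and 66 bp over bound cytosolic ribosomal protein genes. In 14 of the 21 genes (66.7%) the nearest summit lay between 50 and 300 bp upstream, beside 47.0% of all bound protein-coding genes. The share was 55.9% over those with a divergent neighbour and also 66.7% over bound proteasome genes. The annotation placed 13 of the strongest summits between genes, 7 in a 5′ UTR and 1 in an intron, and 6 of these 7 UTRs belong to the neighbour.

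Most genes of the family have a divergent neighbour. A TSS of another protein-coding gene lay 0 to 1 kb upstream on the opposite strand in 58 of the 73 genes (79.5%), beside 36.2% of all protein-coding genes. Of these 58 genes 20 were bound (34.5%), beside 33.5% of all protein-coding genes with such a neighbour. Of the 15 without one only mRpL19 was bound (6.67%), beside 19.9% of protein-coding genes without a divergent neighbour. Read within the genes that have a divergent neighbour, the share of bound mRp genes was thus almost that of the background. The summit also lay within 1 kb of a TSS of another protein-coding gene in 20 of the 21 bound genes (95.2%), beside 47.6% of all bound protein-coding genes. It was nearer to that TSS than to the TSS of the mRp gene in 15 of 21, and the mRp gene was the nearer in 6 (28.6%, beside 76.8% of all bound protein-coding genes). Both shares stand beside all bound protein-coding genes, of which only 1694 of 3467 have a divergent neighbour. Since 20 of the 21 bound mRp genes have one, neither comparison is made at a like arrangement of genes. The median distance to the nearest TSS of another gene was 144 bp. The counts of 15 and 6 use the strongest summit of each gene. At mRpS10 the choice turned on a few bp, with 130 bp to its own TSS and 127 bp to that of Art3.

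These summits fell into 2 arrangements. In 12 of the 20 divergent pairs (60.0%, beside 54.6% over all bound genes with a divergent neighbour) the strongest summit lay between the paired TSSs. The pairs of mRpS7 with the cell cycle kinase gene Cdk1 (149 bp upstream of mRpS7, 251 bp from Cdk1) and of mRpS24 with Apc2 (266 bp and 155 bp) are examples. In the other 8 it lay outside the gap. At mRpL22 it was 4 bp from the TSS of the integrin gene if (inflated), at mRpL34 it was 85 bp from that of Dg (Dystroglycan) and at mRpL33 it was 248 bp from that of norpA, the phospholipase C gene of photoreceptors. At mRpL32 the strongest summit was 17 bp from a TSS of qless and 681 bp from mRpL32. In 4 of the 21 genes (19%, beside 24.1% of all bound protein-coding genes) there was a second thresholded summit, in each case nearer to the mRp gene. These were mRpL32 (78 bp, rank 5043), mRpL34 (247 bp, rank 5572), mRpS31 (66 bp, rank 7480) and mRpS26 (38 bp, rank 9325).

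**Figure D3:**
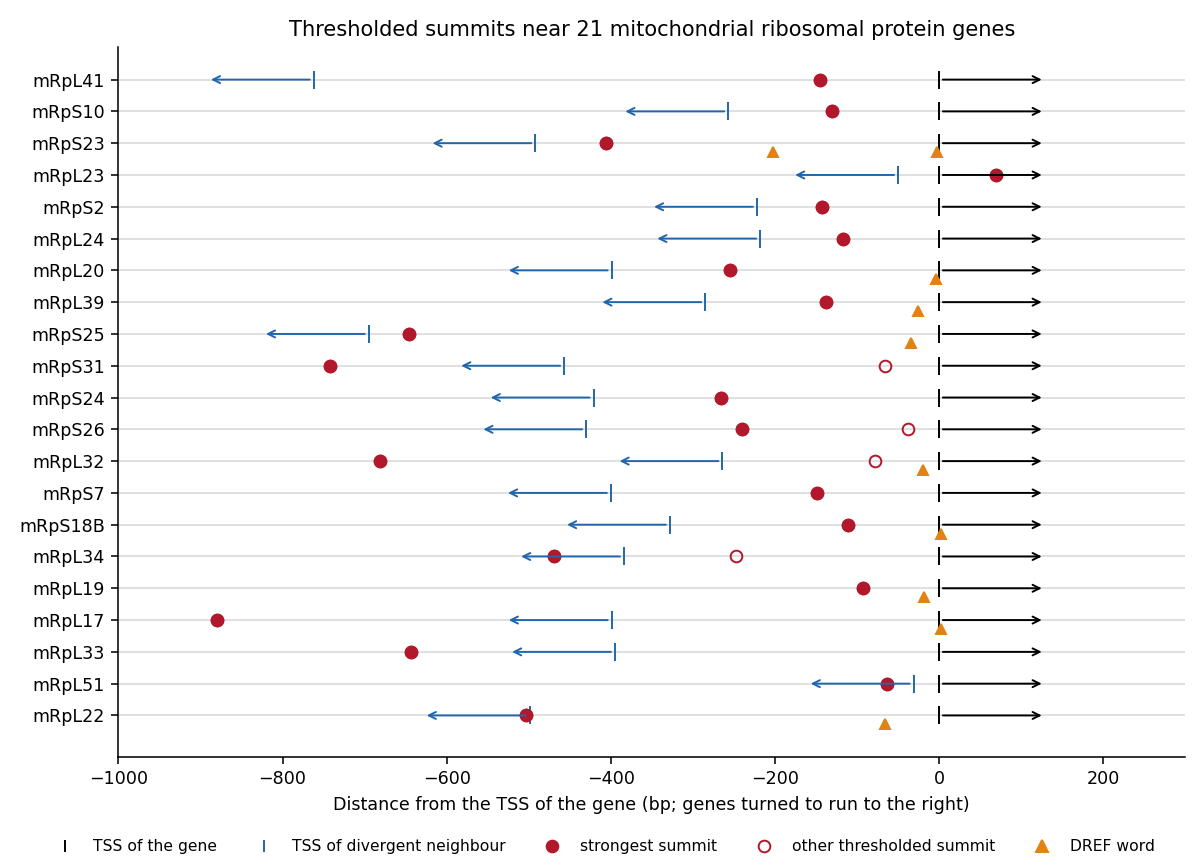
Position of thresholded summits within 1 kb of the 21 bound genes, in order of rank, with each gene turned to run to the right from its TSS at 0 bp (horizontal axis, bp). Black and blue ticks with arrows are the TSS of the gene and the closest TSS of its divergent neighbour, filled circles the strongest summit, open circles other thresholded summits, and triangles TATCGATA from 250 bp before to 50 bp after the TSS. Neighbours are drawn from the TSS at 0, so at mRpL23, which has several TSSs, the distance is wider than the 24 bp between the closest pair, and other TSSs of a neighbour are not drawn. Only the mRpL23 summit lies to the right of 0. Most triangles stand near 0, within the only window that was searched for them.

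The spacing of the divergent pair went along with binding in the thresholded list. The median gap between the paired TSSs was 397 bp at the 20 bound genes and 181 bp at the 38 others, beside 316.5 bp and 284 bp over all protein-coding genes with a divergent neighbour. A split at 200 bp was set after these values were seen. With a gap under 200 bp 2 of 22 mRp genes were bound (9.09%, beside 24.3% of all protein-coding genes with such a gap), and with a wider gap 18 of 36 (50%, beside 37.5%). The pairs were split alike in replicate 1, with 1 of 22 and 19 of 36 (beside 22.0% and 36.7% of all protein-coding genes with such gaps), and in replicate 2, with 2 of 22 and 21 of 36 (beside 26.6% and 39.7%). In replicate 3 they were not, since 11 of 22 (50%) narrow pairs and 23 of 36 (63.9%) wide pairs had a summit, beside 31.9% and 44.1%. The narrow pairs were thus below the share of all genes in replicates 1 and 2 and above it in replicate 3. The difference by spacing thus rests on replicates 1 and 2 and the lists called on all replicates. Of the 2 narrow pairs bound in the thresholded list, mRpL23 with CG9004 has a gap of 24 bp and mRpL51 with Uba4 one of 31 bp.

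**Figure D4:**
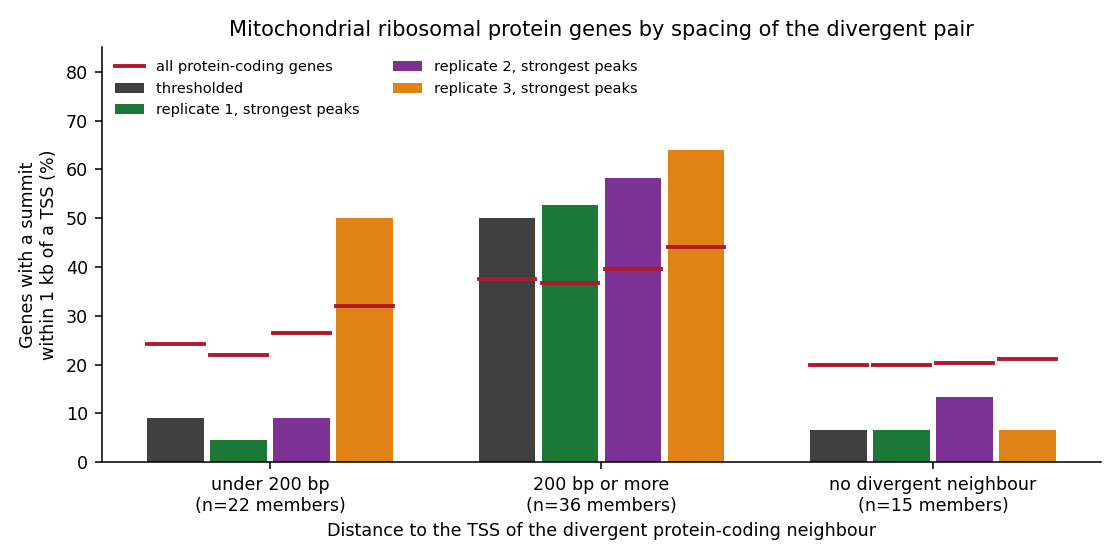
Percentage of mitochondrial ribosomal protein genes with a summit within 1 kb of a TSS (vertical axis, bars) by the distance to the TSS of the divergent neighbour, in the thresholded list and among the strongest peaks of each replicate. Red lines are the same percentage over all protein-coding genes of each kind. Under 200 bp the bars are at 9.09% or lower except in replicate 3, which is at 50%.

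Some of these genes had a summit among the strongest peaks of a replicate and none in the pooled list. In 15 of the 73 genes (20.5%, beside 4.41% of all protein-coding genes) a summit lay among the 9515 strongest peaks of at least 1 replicate, while none of the 30000 pooled peaks was within 1 kb. The share was 15.2% over cytosolic ribosomal protein genes and 10.8% over other genes of mitochondrial gene expression. It was 6.25% over proteasome genes and 2.27% over oxidative phosphorylation genes. For 4 of the 15 this held in replicates 2 and 3 together (5.48% of the 73 genes, beside 1.22% of all protein-coding genes and 4.35% of cytosolic ribosomal protein genes). At mRpL43 the rank was 4519 in replicate 2 and 3482 in replicate 3, at mRpL54 it was 5842 and 4224, at mRpS21 it was 7365 and 7782, and at mRpS29, which encodes a GTP-binding protein known as a death-associated protein in mammals, it was 6538 and 6737. None of these genes had a summit in the full list of replicate 1. Another 9 were found in replicate 3 alone by this measure: mRpL11, mRpL16, mRpL27, mRpL28, mRpL42, mRpL47, mRpL53, mRpS16 and mRpS22. In replicate 1 alone were mRpL37 (rank 3941) and mRpS30 (rank 2714). The summits of replicate 3 at these genes had a median distance of 147 bp from the TSS, with a range of 18 to 909 bp. The farthest was that of mRpL27, 909 bp downstream of its TSS. All 15 genes have a divergent neighbour, as do 79.5% of the 73 genes. Why such peaks are missing from the pooled list was not tested.

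Below the threshold, 8 of the 73 genes had a summit in the pooled list and none in the thresholded one, beside 13.3% of all protein-coding genes. Highest among the 8 were mRpL55 (rank 9979), mRpL21 (10183) and mRpS6 (10275), just under the last thresholded rank of 9515. Next were mRpL18 (10725), mRpL2 (11127), mRpL50 (11535), mRpL12 (12212), whose mammalian relative also binds the mitochondrial RNA polymerase, and mRpL13 (19436). Just outside the distance of 1 kb, the nearest thresholded summit was 1233 bp from mRpS6, 1434 bp from mRpL55 and 1440 bp from mRpL13. The median distance over the 52 genes with none within 1 kb was 7092 bp. Genes with only a weaker summit, in replicate lists alone, were mRpL35 and mRpS17 (replicate 3) and mRpL49 (replicates 2 and 3).

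The 26 genes without a summit in any list were 16 of the large and 10 of the small subunit, and over all protein-coding genes 48.0% had none in the full replicate lists. In the large subunit they were mRpL1, mRpL3, mRpL4, mRpL9, mRpL10, mRpL14, mRpL15, mRpL30, mRpL36, mRpL38, mRpL40, mRpL44, mRpL45, mRpL46, mRpL48 and mRpL52. In the small subunit they were mRpS5, mRpS9, mRpS11, mRpS14, mRpS18A, mRpS18C, mRpS28, mRpS33, mRpS34 and mRpS35. The mRpS18 paralogues were thus split, with mRpS18B bound and the other two not. Of the 26, 15 have a divergent neighbour, at a median gap of 57 bp.

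Sequence words were counted to see what the bound promoters share beyond the name of the gene. Each word was searched on both strands, in the 300 bases from 250 bp before to 50 bp after the TSS used by most transcripts, and within 50 bp of the strongest summit. TATCGATA was present in the promoters of 15 of the 73 genes (20.5%), beside 9.23% of all protein-coding promoters. Among the 21 bound genes it was in 9 (42.9%) and among the 52 others in 6 (11.5%). Over all protein-coding genes the shares were 10.4% of bound and 8.86% of other promoters. The word was also common at 30.4% of cytosolic ribosomal protein promoters, 25.0% of proteasome promoters and 27.0% of promoters of other mitochondrial gene expression. In oxidative phosphorylation promoters it was near the background, at 10.2%. Among proteasome genes it was likewise in more bound (55.6%) than other promoters (17.9%). Among oxidative phosphorylation genes the shares were 15.8% and 8.70%. The order was the reverse among cytosolic ribosomal protein genes (27.1% and 34.1%) and the other genes of mitochondrial gene expression (14.3% and 30.0%).

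For bound genes, the copy of TATCGATA closest to the TSS is shown in capitals with up to 20 bases either side, where no annotated exon covers it (dm6, strand of the mRp gene, 5′ to 3′). Copies were searched only from 250 bp before to 50 bp after the TSS, and the closest was taken. Their nearness to the TSS and their distance from summits farther upstream are thus partly set by the search.
mRpL19, chr3R:8674064-8674108, plus strand: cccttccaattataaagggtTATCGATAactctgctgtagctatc
mRpL20, chr3L:13017868-13017897, minus strand: cacgccttgcatcgatatttTATCGATAac
mRpL22, chrX:16783840-16783887, plus strand: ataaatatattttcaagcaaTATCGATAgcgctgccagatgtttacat
mRpL32, chr3R:31252825-31252871, plus strand: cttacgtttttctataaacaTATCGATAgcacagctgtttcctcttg
mRpL39, chr3L:14999671-14999718, minus strand: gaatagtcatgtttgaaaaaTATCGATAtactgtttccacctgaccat
mRpS23, chr2L:13835073-13835101, minus strand: cacagcggcaactctgatggTATCGATAg
mRpS25, chrX:14582996-14583043, minus strand: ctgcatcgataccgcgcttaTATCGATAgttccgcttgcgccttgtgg
Taking the copy closest to the TSS in each gene, its distance from the TSS was 2 to 66 bp over the 9 bound genes, with a median of 18 bp. Its distance from the strongest summit was 70 to 880 bp, with a median of 400 bp. The other 2 bound genes with the word, mRpS18B and mRpL17, have it across the start of an annotated transcript, and mRpS23 has a second copy 202 bp upstream. One strongest summit of the 21 (4.76%, beside 1.47% of all bound protein-coding genes) had TATCGATA within 50 bp. It was that of mRpS25, where the word lies near the TSS of the neighbour nmdyn-D6 and not that of mRpS25.
mRpS25 summit, chrX:14583578-14583676, minus strand: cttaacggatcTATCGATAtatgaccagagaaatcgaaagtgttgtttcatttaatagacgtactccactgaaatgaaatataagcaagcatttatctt

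The recognition sequence of Blimp-1 was about as frequent at these genes as at all protein-coding genes. AGTGAAAG or AGCGAAAG lay within 50 bp of 1 of the 21 strongest summits, that of mRpL22 (4.76%, beside 5.54% of all bound protein-coding genes). In the promoter windows it was present in 3 of the 73 genes (4.11%, beside 3.12% of all protein-coding promoters). These were mRpL4, mRpL28 and mRpS30. None of the 21 bound genes had it there, beside 4.27% of all bound protein-coding genes. The inner GAAAG, a word added after the data had been seen, was at 6 of the 21 summits (28.6%, beside 30.9%). GGTCACAC, the word of M1BP, another factor of core promoters, was in 8 of the 73 promoters (11.0%, beside 7.79% of all protein-coding promoters). Of the 21 bound genes 1 had it, mRpL22 (4.76%, beside 10.5% of all bound protein-coding genes). The E-box CACGTG was in 5 promoters (6.85%, beside 4.20%), and GCGCATGC, part of the site of the NRF-1 family, was in 1 (1.37%, beside 1.07%).

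Other genes of mitochondrial gene expression were not clearly bound less often than all protein-coding genes. The Wilson interval of their thresholded share, 9.48 to 34.2%, holds the share of all protein-coding genes. Of 37 genes for mitochondrial tRNA synthetases, translation factors and factors of mitochondrial DNA, 7 had a thresholded summit within 1 kb (18.9%, beside 24.9% of all protein-coding genes). They were the tRNA synthetase genes AlaRS-m (rank 132), LeuRS-m (646) and CysRS-m (4841), mtSSB, the single-stranded DNA-binding protein (1641), mtTFB1 (3061), mTerf5 (4370) and the initiation factor gene mIF2 (9260). The genes tko and bonsai, which encode mitochondrial ribosomal proteins under other symbols and so were not chosen, had none. Neither had TFAM, which packages mitochondrial DNA, nor PolrMT, the mitochondrial RNA polymerase. Among oxidative phosphorylation genes 19 of 88 were bound (21.6%), led by the cytochrome c gene Cyt-c-p (431). Of cytosolic ribosomal protein genes 48 of 92 (52.2%) and of proteasome genes 9 of 48 (18.8%) were bound. By interval the mitochondrial ribosomal protein genes (19.7 to 40.0%) lay below the cytosolic ones (42.1 to 62.1%), with no test made of that difference. The TSS of the gene itself was the nearest TSS to the summit in 39 of 48 cytosolic genes (81.3%), against 6 of 21 mitochondrial ones. This comparison is not made at a like arrangement of genes. A divergent neighbour is present at 36 of the 48 bound cytosolic genes and at 20 of the 21 mitochondrial ones.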

How the data were processed

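ChIP-seq of GFP-tagged Blimp-1 in whole embryos was analysed from the deposited peak lists: 1 list for each of 3 replicates, 1 pooled list and 1 thresholded list. Per the notes deposited with the files, reads were aligned to dm6, 1 control alignment served for every replicate, and the thresholded list derives from the replicate and pooled lists. Not given in the sources used here are the aligner, the peak caller and the level of the threshold. The signal value of a peak is the authors' own, on a scale not stated, and was used for ranks within a list. The deposited lists also hold a −log10 q-value per peak, which was not used.

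From these files, summits were assigned to TSSs of Ensembl release 115 gene models (dm6 coordinates, pseudogenes and transposable elements left out) with Python 3.11.15, pandas 2.3.3 and numpy 2.4.6. Sequence came from the RefSeq copy of the Release 6 assembly. Coordinates are 1-based. Replicate summits within 100 bp were taken as matched. The assignment was tested on simulated data with planted summits. No group comparison exists and genes are not replicates, so no p-values are given, and shares stand beside those of all protein-coding genes. Wilson intervals cover counting error only. The members, lists and words were chosen with earlier results of these data known. The genes named follow a rule: every bound member with its rank, replicate ranks for the strongest and weakest, those just outside the distance or threshold, and all members with none. Of 36 symbols written out in the compared lists, 34 matched a gene. Alternatives changed the distance, the list, the TSSs, the window and the replicates.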

Additional observations from a re-analysis of the deposited data

How the results depend on the processing

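Of 55 alternative values, 43 stayed within 1.5 times the reported count, or within 1 SD of the replicates for medians. The count of bound members (21) ranged from 15 among the 4757 strongest thresholded peaks (the stronger part) to 29 in the pooled list, and was 21 with RefSeq TSSs, an alternative chosen after seeing the data. Keeping only thresholded peaks matched in both other replicates when 1 replicate was left out gave 19 to 21. The mean count per replicate (27.0) was 15.3 with the 4757 strongest peaks of each, and 23.0 to 30.0 with 1 replicate left out, lowest without replicate 3.

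The median distance of the nearest summit (142 bp) was 130 bp within 500 bp, 198 bp within 2 kb, 149 bp in the stronger part and 117 bp in the pooled list, against an SD of 3.51 bp over replicates; a wider or narrower distance limit changes it by construction. The median rank (3795) was 2954 in the stronger part, which holds no weaker ranks. Members with AGTGAAAG or AGCGAAAG at the summit (1) were 0 within 500 bp and in the stronger part, and 2 within 2 kb or with 100 bp either side. The split of the 58 divergent pairs into 22 narrow and 36 wide ones was chosen after seeing the data. No paired analysis was possible because there is only 1 group. Depth is unknown and limits what weak or absent peaks can show.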
